A study of Mus musculus with 11 samples.

Results

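Myeloid cells from irradiated tumours of mice lacking Tlr9 were compared with those of wild-type mice across all genes. The comparison uses 7 of the 11 libraries of the series, 4 labelled TLR9KO and 3 labelled WT, and 10557 of the 22068 gene symbols in the files, those whose mean over the 11 libraries reached 1 RPKM. RPKM, a read count divided by transcript length in kilobases and by the library's mapped reads, puts genes of different length on one scale. The TLR9KO mice carried the genotype TLR9-/-, and the WT mice are labelled wild type. The 4 remaining libraries, labelled STAT3KO (Stat3 deleted through MxCre/Stat3flox, in which the Mx1 promoter drives Cre), entered the fit of the spread and served as a further reference. All mice had a C57BL/6 background, and every group carried tumours implanted under the skin that were irradiated locally with 15 Gy and taken 4 days later. No unirradiated group was analysed here, so the values describe irradiated tumours only. Cells positive for CD11b, an adhesion receptor found on most myeloid cells, were enriched with antibodies and magnetic beads, and their total RNA was sequenced without culture. The labels name neither the tumour nor the exons removed from Tlr9, and they do not say whether replicates came from separate animals. The p-values therefore rest on how far these samples differ, a spread that may be technical.

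Tlr9 is an endosomal receptor for DNA rich in unmethylated CpG motifs, and dying cells as well as bacteria can supply such DNA. With the chaperone Unc93b1 it reaches the endosome, where it signals through the adaptor Myd88 to NF-kB, which drives inflammatory cytokines, and to Irf7, which drives type I interferon. In mice, macrophages, dendritic cells and B cells are the main cells that express it.

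The reads behind the values were estimated at 34.65 to 41.55 M reads per TLR9KO library and 30 to 37.65 M reads per WT library, so that 1 RPKM in a transcript of 2 kb stands for 60 to 83.1 reads. Log2 values correlated across genes at 0.959 to 0.993 within TLR9KO, 0.974 to 0.988 within WT and 0.932 to 0.976 between them. Differences below are on the scale of log2(RPKM + 1), which understates changes of low genes, with the moderated standard error of limma, a linear model fitted to every gene. A gene is said to have risen or fallen in TLR9KO where its limma p, adjusted by Benjamini-Hochberg over the 10557 genes, was under 0.05.

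Tlr9, the deleted gene, was low in every TLR9KO library. It stood at 3.53, 6.15, 7.70 and 5.71 RPKM in TLR9KO replicates 1 to 4 and at 20.5, 41.6 and 28.9 RPKM in WT replicates 1 to 3. The groups did not overlap, and the log2 difference was -2.19 ± 0.37 (SE; limma adjusted p = 0.00193). Which part of the gene the remaining reads come from cannot be read from a value per gene.

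Across all genes, 3229 of 10557 were past the threshold (30.6%), with 2107 rises (20%) and 1122 falls (10.6%). Without WT replicate 1 the numbers were 1383 and 602. At least 2-fold rises numbered 177 (1.68%) and at least 2-fold falls 53 (0.502%), which came to 90 without WT replicate 2. The 4 TLR9KO values lay wholly above or below the 3 WT values for 36.1% of the genes. The direction of these calls moved with scaling and with base composition. Higher calls made up 65.3% of the total, but 54.2% (1780 against 1504) with median-ratio scaling and 53.6% (1734 against 1501) with quantile normalization.

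The difference between the groups followed the GC content of the transcripts. Genes were ordered by GC content and divided into 5 classes of equal size. In the class with the lowest GC content, 31.2% to 45.5%, the median log2 difference was 0.38, with 1072 genes higher and 9 lower. In the class with the highest, 56.2% to 73.2%, it was -0.18, with 75 higher and 450 lower. The change ran stepwise through the 3 classes between them, which held 500, 292 and 132 higher calls and 66, 233 and 354 lower ones. Across genes, which are not independent replicates, the Spearman correlation of the difference was -0.538 with GC content and -0.171 with transcript length. The genes that rose had a median GC content of 45.27%, the genes that fell 55.31%, and all tested genes 50.94%.

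Each library was also described by its own slope, the change of its log2 values, relative to each gene's mean over the libraries, per 10 points of GC content. The slopes were -0.182, -0.167, -0.198 and -0.088 in the TLR9KO libraries and 0.280, 0.034 and 0.292 in the WT libraries. WT replicates 1 and 3 were steep and WT replicate 2 was nearly flat, yet the groups did not overlap. The means were -0.159 ± 0.049 (SD, n = 4) and 0.202 ± 0.145 (SD, n = 3), and the two-sided exact permutation p was 0.0571, the smallest that 4 libraries against 3 can give. The STAT3KO slopes of -0.002, 0.092, -0.017 and -0.043 lay between the TLR9KO slopes and those of WT replicates 1 and 3. The cause of the trend was not tested.

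**Figure D1:**
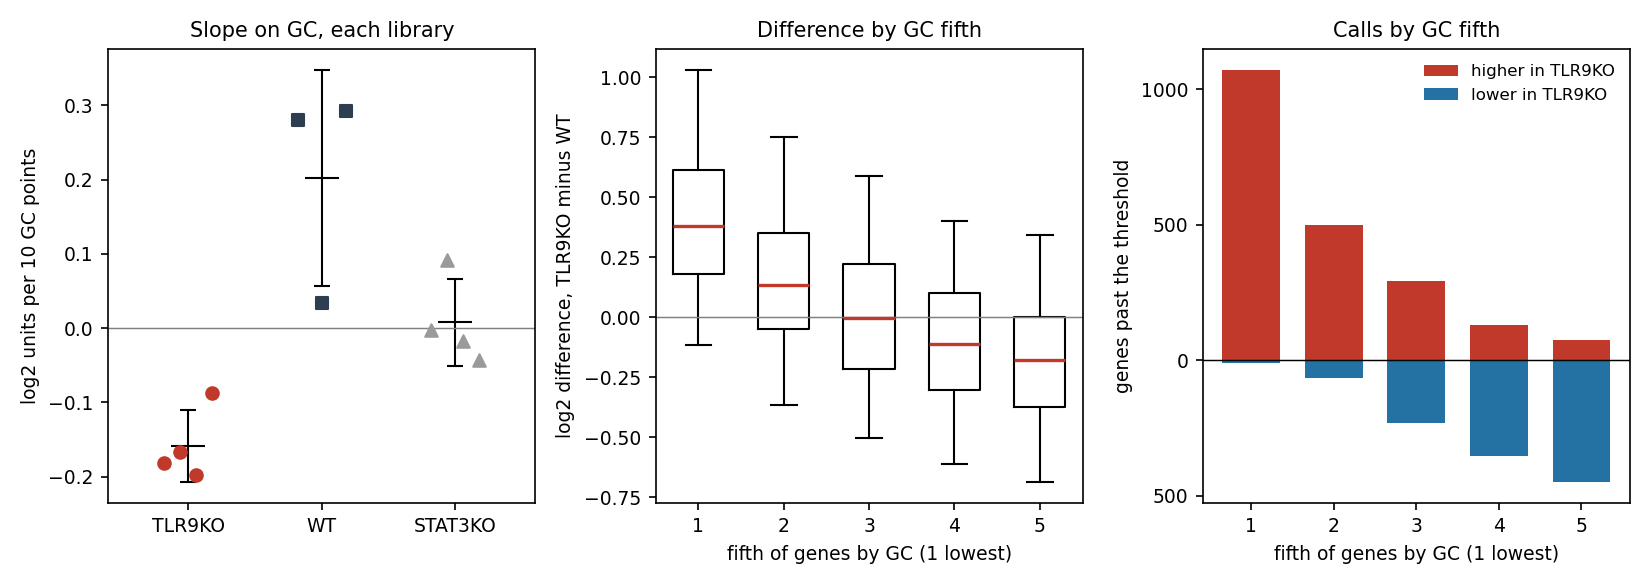
Left, slope of each library on GC content in log2 units per 10 GC points, with the group mean and SD; middle, log2 difference TLR9KO minus WT by GC class, from 1 (lowest) to 5 (box, quartiles; line, median; whiskers, 5th to 95th percentile of genes); right, number of genes past the threshold in each class. The TLR9KO slopes lie below 0 and the WT slopes above it, and higher calls drop from 1072 to 75 as lower calls go from 9 to 450.

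Differences are therefore also given as corrected values, from which smooth trends on GC content and length were removed in each library. For the 10427 genes with a matched transcript, 1003 were then higher (9.62%) and 808 lower (7.75%), and the Spearman correlation with GC content was 0.015. Among the 3183 called genes with a corrected value, 1288 passed again in the same direction, 1882 lost the call and 13 were called in the opposite direction. Another 510 genes were called only with correction. Of the changes of at least 2-fold, 121 of 171 rises and 41 of 50 falls kept their call, and 36 and 30 of them were still at least 2-fold. The phosphatase-related gene Nt5dc1 shows the other extreme, at 0.43 ± 0.08 as deposited and -0.25 ± 0.08 corrected.

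WT replicate 2, the library with the flattest slope of its group, was set alone against the 4 TLR9KO libraries, an alternative chosen after the data had been seen. The Spearman correlation with GC content was then -0.297, and 362 genes passed, 255 higher and 107 lower. Of these, 341 had passed in the same direction against all 3 WT libraries. The lone WT library was assumed to vary like the others.

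The single largest rise was Lars2, the mitochondrial leucyl-tRNA synthetase. It was 364, 399, 354 and 271 RPKM in TLR9KO and 49.15, 35.99 and 43.05 RPKM in WT. No TLR9KO library came near the WT range, and the difference was 2.99 ± 0.14 (limma adjusted p = 1.93e-06; corrected 2.86 ± 0.13). Against STAT3KO, where it was 31.2 to 38.4 RPKM, it was 3.31 ± 0.13 higher. Calml4, a calmodulin-like protein, was 7.41, 7.28, 8.71 and 8.09 RPKM in TLR9KO and 0.99, 0.58 and 0.58 RPKM in WT. It too was separated by a wide gap (2.38 ± 0.12; corrected 2.07). Ccl8, a chemokine that draws monocytes and T cells, was 671, 619, 1087 and 798 RPKM against 132.5, 246 and 174 RPKM. Its lowest TLR9KO value exceeded its highest WT value (2.11 ± 0.24; corrected 1.78). Rgs1, a brake on chemokine receptor signalling, was 199, 133, 200.4 and 133 RPKM against 30.6, 61.4 and 58.0 RPKM, again without overlap (1.75 ± 0.24). Its GC content was 38.77%, and its corrected difference was smaller (1.07 ± 0.21). Smc4, a condensin subunit (1.72 ± 0.25; corrected 1.26), and the transcripts 1810022K09Rik (1.75; corrected 0.96) and 1500012F01Rik (1.74; corrected 1.42) also rose.

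Outside the hemoglobins, the largest fall was Cxcl1, a chemokine that attracts neutrophils. It was 4.05, 2.49, 2.19 and 1.80 RPKM in TLR9KO and 36.5, 17.8 and 54.1 RPKM in WT. The groups did not overlap, and the difference of -3.26 ± 0.35 (limma adjusted p = 0.000231) was -3.67 ± 0.37 corrected, at a GC content of 45.12%. Of the other 7 tested CXC chemokines, the interferon-induced Cxcl10 rose (1.33 ± 0.43, not past the threshold corrected), at 88.2, 171, 198 and 162 RPKM against 36.4, 80.1 and 68.4 RPKM. Its call was lost without WT replicate 1, WT replicate 3 or any 1 of TLR9KO replicates 2, 3 and 4. The remaining 6 did not pass. Among them Cxcl2, another neutrophil attractant, was 197 to 628 RPKM in TLR9KO against 304 to 456 RPKM in WT (-0.08 ± 0.32). Cndp2, a dipeptidase, was 122, 142, 178 and 155 RPKM in TLR9KO and 399, 438 and 497 RPKM in WT. Its groups lay far apart (-1.58 ± 0.13; corrected -1.54). Fn1, the matrix protein fibronectin, was 257, 182, 67.6 and 214 RPKM against 611, 495 and 328 RPKM. Its groups did not overlap either (-1.51 ± 0.39; corrected -1.17), but without WT replicate 1 its limma adjusted p was 0.0656.

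**Figure D2:**
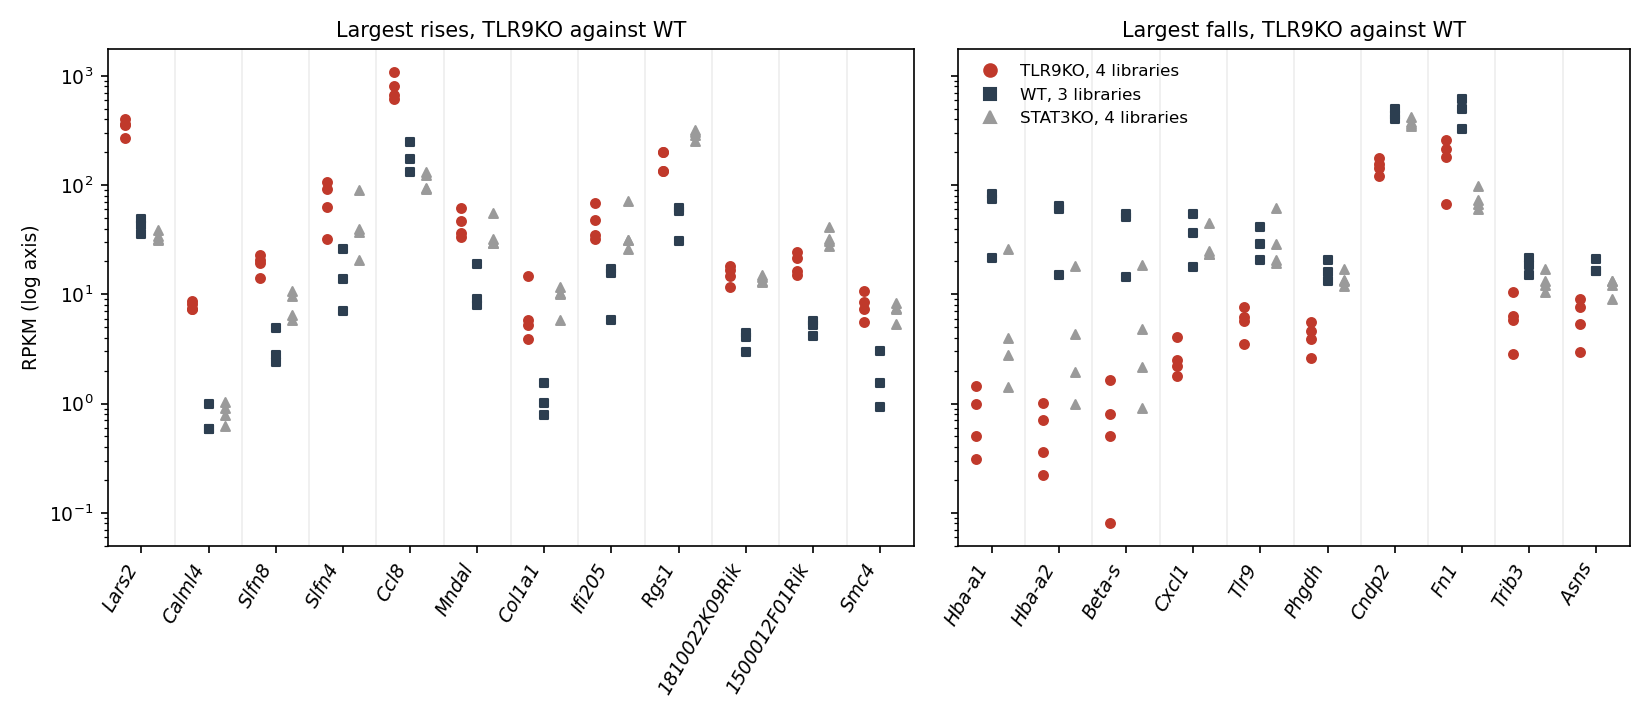
RPKM on a log axis in each library for the 12 largest rises (left) and 10 of the 12 largest falls (right) in TLR9KO against WT; each point is a library. Hbb-b1 and Hbb-b2 are left out because they are listed at 0 in some libraries. The TLR9KO and WT points do not overlap in any gene shown, which was a condition of the choice.

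Interferon-stimulated genes stood on the higher side. Of 36 tested antiviral genes of the type I interferon response, 18 rose and 0 fell (23 and 0 at an unadjusted limma p under 0.05), that is 50% against 20% of all genes, and the median log2 difference was 0.74 against 0.036 over all genes. With correction 10 rose and 0 fell, with a median of 0.50. Ifi44 was 5.79, 8.60, 10.5 and 5.48 RPKM in TLR9KO and 1.15, 2.91 and 2.19 RPKM in WT (1.48 ± 0.28; corrected 0.91 ± 0.25). Samd9l, a restriction factor, was 16.3, 17.2, 18.8 and 12.1 RPKM against 4.41, 8.81 and 5.25 RPKM (1.29 ± 0.24; corrected 0.77). Ifi27l2a was 413, 434, 488 and 410 RPKM against 131, 233 and 263 RPKM (1.12 ± 0.25; corrected 1.01). In each of these genes WT replicate 1 was the lowest library and no values overlapped. The mean of the list on the log2 scale was 5.33, 5.53, 5.66 and 5.33 in TLR9KO, 4.28, 5.03 and 4.98 in WT and 5.12 to 6.07 in STAT3KO. Without WT replicate 1, 6 of the 36 rose. In bulk samples, fewer cells of a type and less RNA per cell cannot be told apart.

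The Ifi200 family, sensors and regulators that bind nucleic acids and are induced by interferon, was also higher. Of 8 tested members 7 rose and 0 fell (8 and 0 unadjusted), which is 87.5% against 20% of all genes, with a median of 1.21. Mndal was 33.7, 46.6, 61.8 and 36.7 RPKM in TLR9KO and 8.02, 18.8 and 9.06 RPKM in WT, Mnda 92.7, 111, 154 and 81.8 RPKM against 21.3, 47.6 and 37.2 RPKM. Neither gene overlapped between the groups (1.87 ± 0.31 and 1.64 ± 0.30). The family has a median GC content of 40%, a range in which most genes stood higher. Corrected, Mndal (1.15) and Mnda (1.08) remained called, the median was 0.64, and 2 of 8 passed. Aim2, which triggers the inflammasome on cytosolic DNA, rose by 0.82 ± 0.18 but not corrected (0.38, limma adjusted p = 0.136). These genes are close copies of each other and can share reads.

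Among 18 guanylate-binding proteins and GTPases induced by interferon-gamma, 6 rose and 0 fell (9 and 0 unadjusted), with a median of 1.09. The share that rose was 33.3% against 20% of all genes. Corrected, 2 of 18 rose, near the 9.62% of all genes. Gvin1 was 19.6, 24.2, 35.7 and 17.9 RPKM against 5.13, 13.2 and 4.93 RPKM (1.61 ± 0.35; corrected 1.3). Gbp7 was 14.7, 26.3, 33.8 and 26.8 RPKM against 5.47, 14.5 and 5.95 RPKM (1.52 ± 0.35; corrected 1.31). Both were higher in every TLR9KO library, with Gbp7 in TLR9KO replicate 1 just above WT replicate 2. The list varied widely within TLR9KO, with a mean of 4.16 in replicate 1 and 5.87 in replicate 3 on the log2 scale. Its count of rises was 14 without TLR9KO replicate 1, 3 without TLR9KO replicate 2 or 4, and 2 without TLR9KO replicate 3, WT replicate 1 or WT replicate 3. Of 8 Schlafen genes, which restrict growth and viral translation, Slfn8 rose from 2.38, 4.91 and 2.81 RPKM in WT to 20.7, 19.2, 23.1 and 14.0 RPKM (2.23 ± 0.24; corrected 1.94). Slfn4 rose by 2.2 ± 0.54, missing the threshold when WT replicate 1 was left out (limma adjusted p = 0.0546), and Slfn2 fell (-0.38 ± 0.13), a call held only without WT replicate 1 or TLR9KO replicate 3 when single libraries were left out.

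Receptors and transcription factors of the interferon pathway moved less. Of 18 tested, Ifngr2, a chain of the interferon-gamma receptor, rose (0.44 ± 0.12, corrected 0.50) and 0 fell (2 and 0 unadjusted). Over all genes 20% rose and 10.6% fell. The number of rises was 0 without WT replicate 1 or 3 and 2 without TLR9KO replicate 1 or 4. Of 16 sensors of cytosolic DNA and RNA, 4 rose and 0 fell (6 and 0 unadjusted; 2 and 0 corrected), and the 25% that rose is near the 20% of all genes. The kinase Tbk1, which activates interferon regulatory factors, was 15.4, 13.9, 15.4 and 15.3 RPKM against 7.02, 10.6 and 8.93 RPKM, without overlap (0.72 ± 0.12; corrected 0.44 ± 0.11). The RNA sensor Ifih1 rose by 1.01 ± 0.25 (corrected 0.77), missing the threshold when WT replicate 1 was left out (limma adjusted p = 0.0627).

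Markers of lymphocytes, a source of interferon-gamma, were scarce in these libraries. The summed level of 15 T and NK cell markers was 9.80, 10.1, 38.2 and 12.96 RPKM in TLR9KO and 15.7, 31.3 and 69.9 RPKM in WT. None of the 15 was at 0 throughout a group. Of 9 tested, 0 rose and 1 fell (0 and 2 unadjusted), against 20% and 10.6% of all genes, and the 1 fall lies near that share. It was Cd2 (-0.81 ± 0.27), and 0 fell without any single one of the TLR9KO libraries, WT replicate 2 or WT replicate 3. TLR9KO replicate 3, with the highest lymphocyte level of its group, also had the highest mean of the guanylate-binding proteins. WT replicate 3 had the highest lymphocyte level of both groups (69.9 RPKM). The mean log2 value of the guanylate-binding proteins and GTPases was 4.157, 5.237, 5.872 and 5.155 in TLR9KO. In WT it was 3.497, 4.53 and 4.204. The part of these cells in the interferon-stimulated genes was not tested.

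Among the Toll-like receptors and their chaperones, directions depended on the correction. Of 22 tested genes of the receptors and their chaperones, 4 rose and 2 fell, or 18.2% and 9.09% against 20% and 10.6% of all genes. The rises were Ly96, the partner of Tlr4 (0.72 ± 0.14), Ly86, the partner of Cd180 (1.12 ± 0.37), the folding chaperone Hsp90b1 (0.51 ± 0.16) and the RNA receptor Tlr3 (0.41 ± 0.14). None of these 4 passed corrected, and Ly96, of 40.09% GC, stood at -0.04. The falls were Tlr9 and Tlr6 (-0.32 ± 0.11; corrected -0.59). Corrected, 0 rose and 4 fell, the other falls being Tlr13 (-0.58) and Tlr4 (-0.40). The number of rises was 1 without WT replicate 1, WT replicate 3, TLR9KO replicate 2 or TLR9KO replicate 3, and the number of falls was 1 without any single WT library or any 1 of TLR9KO replicates 2, 3 and 4. Unc93b1, which carries Tlr9 to the endosome, was 163, 248, 391 and 292 RPKM in TLR9KO and 190.5, 247 and 201 RPKM in WT, overlapping widely (0.30 ± 0.25). Of 15 genes of Myd88 and Trif signalling 3 rose and 1 fell, again near the shares of all genes. The bridging adaptor Tirap was 4.36, 3.45, 4.11 and 3.80 RPKM against 2.38, 2.94 and 2.94 RPKM (0.39 ± 0.09; corrected 0.48). Ticam1, the Trif adaptor, fell by 0.32 ± 0.08 on the log2 scale, a call lost with correction (-0.07). Of the 15, 0 rose without WT replicate 1 and 1 rose without WT replicate 3 or TLR9KO replicate 2, 3 or 4, while falls numbered 0 without WT replicate 1 or 3 and 2 without TLR9KO replicate 1. Of 16 NF-kB subunits and inhibitors 1 rose and 2 fell, against 20% and 10.6% of all genes. The kinase Chuk stood at 0.58 ± 0.09 (corrected 0.16) and the subunit Rela at -0.25 ± 0.08 (corrected -0.08). Neither of these passed corrected. The falls of that list numbered 0 without WT replicate 3 or TLR9KO replicate 2 or 4 and 1 without WT replicate 2 or TLR9KO replicate 1 or 3, and its rises 2 without TLR9KO replicate 1.

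Of 18 inflammatory genes tested, 5 rose (27.8% against 20% of all genes) and 2 fell (11.1% against 10.6%), shares near those of all genes, and 2 and 2 did so corrected. Il18, an inflammasome-processed cytokine, was 21.2, 24.3, 32.6 and 23.02 RPKM against 6.74, 9.18 and 7.33 RPKM, far outside the WT range (1.58 ± 0.20; corrected 0.96 ± 0.18). The inflammatory caspases Casp4 (1.17 ± 0.25) and Casp1 (0.99 ± 0.25) rose but did not pass corrected. Il6, a cytokine that TLR ligands induce through NF-kB, was 2.86, 2.07, 0.97 and 2.79 RPKM against 4.45, 7.39 and 4.26 RPKM. It fell without overlap (-1.02 ± 0.27), and at 38.55% GC the corrected fall was larger (-1.82 ± 0.29). Its call was lost without WT replicate 2 (limma adjusted p = 0.057). Without WT replicate 1 the rises of this list numbered 2, and without WT replicate 2, WT replicate 3, TLR9KO replicate 3 or TLR9KO replicate 4 they numbered 3, while the falls numbered 1 without WT replicate 2 and 4 without TLR9KO replicate 1. The scavenger receptor Msr1 rose from 55.4, 65.1 and 57.8 RPKM in WT to 156, 118, 128 and 109 RPKM (1.08 ± 0.12; corrected 0.67), and Tgfb1, an immune-suppressive cytokine, fell from 337, 309 and 329 RPKM to 176, 175, 160 and 192 RPKM (-0.88 ± 0.09; corrected -0.64).

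Genes of serine synthesis and the response to amino acid shortage stood on the lower side. This group includes targets of Atf4, a transcription factor whose protein is made when translation is restrained. Of 16 tested, 7 fell, which is 43.8% against 10.6% of all genes, and 1 rose, with a median of -0.42. Phgdh, the first enzyme of serine synthesis, was 3.91, 5.6, 2.6 and 4.63 RPKM in TLR9KO and 20.5, 15.96 and 13.3 RPKM in WT (-1.78 ± 0.20). Asns, asparagine synthetase, was 7.64, 8.97, 2.95 and 5.40 RPKM against 21.1, 16.4 and 16.2 RPKM (-1.46 ± 0.27). Trib3, a pseudokinase induced by Atf4, was 10.4, 6.33, 2.85 and 5.88 RPKM against 18.7, 15.1 and 21.4 RPKM (-1.49 ± 0.29). None of the 3 overlapped between groups, as required for the largest falls, and TLR9KO replicate 3 was the lowest library in each. Slc7a5, a transporter of large amino acids (-1.25 ± 0.20), and Aldh18a1, of proline synthesis (-0.80 ± 0.12), fell as well. Atf4 itself was the rise, at 112, 92.6, 98.3 and 101 RPKM against 71.1, 63.2 and 82.0 RPKM (0.49 ± 0.13; corrected 0.54). The list has a median GC content of 55.4%, on the side that the trend lowers. Corrected, 8 fell and 1 rose, with a median of -0.38, and the count of falls was 7 or 8 when any single library was left out, uncorrected. The rise of Atf4 was lost without WT replicate 1 or 2.

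Of 37 tested aminoacyl-tRNA synthetases, which charge tRNAs for translation, 8 fell (21.6% against 10.6% of all genes) and 4 rose (10.8% against 20%), and corrected 11 fell and 2 rose. The cytosolic enzymes Gars, for glycine, at 46.2, 56.3, 43.7 and 47.2 RPKM against 82.8, 75.9 and 71.5 RPKM (-0.66 ± 0.10), Aars, for alanine (-0.75 ± 0.12), and Mars, for methionine (-0.54 ± 0.07), fell with and without correction. The 4 rises were the mitochondrial Lars2, Yars2 (0.39 ± 0.10) and Hars2 (0.30 ± 0.08) and the cytosolic Dars (0.56 ± 0.09), of which Lars2 and Hars2 also passed corrected.

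Sequences upstream of 5 of the genes above are shown because each holds the letters of a known response element of the interferon, amino acid or NF-kB response. Each run holds 250 bases before and 50 after the annotated start, read 5′ to 3′ on the gene's strand, from RefSeq on GRCm38.p6, which is not the build of the files (mm9). Capitals mark the match: GAAA, any 2 bases and GAAA again, the core bound by interferon regulatory factors (in Mndal; Gbp7 holds it on the opposite strand), TGATGNAA, a core of the amino acid response element bound by Atf4 (in Asns; Trib3 holds it on the opposite strand), and GGGA, any base and TTTCC, a kappaB element (in Cxcl1). Mndal lies at chr1:173880138-173880437 (minus strand), Gbp7 at chr3:142530086-142530385 (plus strand), Asns at chr6:7693160-7693459 (minus strand), Trib3 at chr2:152344011-152344310 (minus strand) and Cxcl1 at chr5:90890995-90891294 (plus strand).
Mndal: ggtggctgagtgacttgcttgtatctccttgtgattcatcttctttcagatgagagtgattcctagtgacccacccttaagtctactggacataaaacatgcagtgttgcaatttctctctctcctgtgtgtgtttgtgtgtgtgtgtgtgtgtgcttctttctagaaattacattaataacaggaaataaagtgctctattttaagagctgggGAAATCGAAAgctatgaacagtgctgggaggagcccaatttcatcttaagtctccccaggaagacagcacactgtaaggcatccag
Gbp7: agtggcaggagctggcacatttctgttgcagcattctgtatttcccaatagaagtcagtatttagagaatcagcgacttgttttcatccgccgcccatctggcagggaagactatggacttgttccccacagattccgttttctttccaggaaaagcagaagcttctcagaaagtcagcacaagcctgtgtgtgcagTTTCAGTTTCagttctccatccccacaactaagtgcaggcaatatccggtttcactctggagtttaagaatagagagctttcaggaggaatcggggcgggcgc
Asns: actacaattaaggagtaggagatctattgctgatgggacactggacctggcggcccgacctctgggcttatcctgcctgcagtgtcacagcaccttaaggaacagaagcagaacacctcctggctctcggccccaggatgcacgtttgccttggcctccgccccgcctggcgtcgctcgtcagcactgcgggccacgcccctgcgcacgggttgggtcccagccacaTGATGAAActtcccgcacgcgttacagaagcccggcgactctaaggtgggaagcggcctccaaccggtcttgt
Trib3: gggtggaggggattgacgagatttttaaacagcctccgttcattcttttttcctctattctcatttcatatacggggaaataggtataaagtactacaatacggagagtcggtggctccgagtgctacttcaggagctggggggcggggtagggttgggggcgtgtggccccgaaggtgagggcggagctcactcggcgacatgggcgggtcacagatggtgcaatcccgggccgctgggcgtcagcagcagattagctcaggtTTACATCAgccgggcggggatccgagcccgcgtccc
Cxcl1: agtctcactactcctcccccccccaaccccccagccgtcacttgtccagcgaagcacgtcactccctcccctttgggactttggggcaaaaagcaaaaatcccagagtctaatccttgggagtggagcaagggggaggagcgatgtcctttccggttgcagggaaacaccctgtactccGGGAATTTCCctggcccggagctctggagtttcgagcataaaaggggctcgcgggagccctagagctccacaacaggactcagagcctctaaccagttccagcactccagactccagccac

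Searched on both strands, the interferon core was in 3.44% of all 32851 promoters of this length and in 3.97% of the tested genes with a promoter listed. It was in 18 of 122 genes that rose at least 2-fold (14.8%) and 0 of 33 that fell at least 2-fold. It was in 14 of 26 antiviral genes, 5 of 7 Ifi200 genes and 10 of 11 guanylate-binding proteins and GTPases. The amino acid response core was in 3.97% of all promoters, 2.78% of tested genes with a promoter and 4 of 14 genes of the amino acid group. It was in 3 of 122 genes that rose at least 2-fold and 3 of 33 that fell at least 2-fold. The kappaB element was in 0.411% of all promoters, 0.53% of tested genes with a promoter and 3 of 7 CXC chemokines. It was in 0 of the 122 rises and 3 of the 33 falls. Cxcl1 was the only tested CXC chemokine that fell. None of the 3 motifs contains another. A match describes the letters only.

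Rises among ribosomal, respiratory and proteasome genes made up 36.8% to 41.9% of each list against 20% of all genes, with small median differences that the correction reduced. Corrected, 9.62% of all genes rose. Library means on the log2 scale overlapped for cytosolic ribosomal proteins, at 7.728 to 8.16 in TLR9KO against 7.613 to 7.734 in WT. So did those of oxidative phosphorylation, at 6.10 to 6.54 against 5.97 to 6.17. The means of mitochondrial ribosomal proteins and of the proteasome did not overlap. In STAT3KO the means were 8.145 to 8.462 for cytosolic ribosomal proteins and 6.49 to 6.63 for oxidative phosphorylation. Of 77 cytosolic ribosomal proteins 31 rose and 2 fell (median 0.31), and corrected 21 and 2 (median 0.18). Rps24, of the small subunit, was 257, 328, 386 and 266 RPKM against 151, 171 and 159 RPKM (0.93 ± 0.13; corrected 0.55). Of 75 subunits of oxidative phosphorylation 31 rose and 3 fell (median 0.28), and corrected 14 and 3 (0.16). Cox7b, of cytochrome c oxidase, was 46.2, 60.4, 68.8 and 56.2 RPKM against 23.6, 22.2 and 21.3 RPKM (1.32 ± 0.13; corrected 0.73). The falls of that list numbered 6 without WT replicate 2 and 1 without WT replicate 1, WT replicate 3, TLR9KO replicate 1 or TLR9KO replicate 4. Of 76 mitochondrial ribosomal proteins 28 rose and 2 fell, and corrected 16 and 3. The falls of both ribosomal lists numbered 0 or 1 without WT replicate 1, WT replicate 3, TLR9KO replicate 1 or TLR9KO replicate 3. For proteasome subunits the numbers were 13 and 2 of 31, and corrected 5 and 3. The proteasome numbers were 8 and 0 without WT replicate 1, and its falls numbered 4 without WT replicate 2 and 1 without WT replicate 3, and the median moved from 0.11 to -0.02 with correction. Psmc6, an ATPase of the proteasome with 36.97% GC, went from 0.83 ± 0.10 to 0.05.

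Noncoding RNAs had larger differences. Of 11 tested, 8 rose and 0 fell (11 and 0 unadjusted), which is 72.7% against 20% of all genes, with a median of 1.01, and corrected 6 rose and 0 fell, with a median of 0.60. Gas5, a host of small nucleolar RNAs, was 7.49, 7.76, 9.23 and 8.57 RPKM against 1.69, 2.12 and 2.62 RPKM (1.57 ± 0.13; corrected 0.95). The other hosts Snhg1 (1.33 ± 0.16), Snhg12 (1.01 ± 0.11) and Snhg6 (0.98 ± 0.10) rose too, and all of them passed corrected. No TLR9KO value of Gas5 reached the WT range. Spliceosome and RNA-binding factors gave 17 rises and 4 falls of 39, against 20% and 10.6% of all genes. Corrected, 8 rose and 4 fell, against 9.62% and 7.75% of all genes. The falls lie near those shares. Glycolytic and hypoxia genes had a median of -0.37 (-0.29 corrected), with 6 falls (22.2% against 10.6% of all genes) and 1 rise of 27. Eno1, enolase, was 680, 646, 447 and 591 RPKM against 1070, 750.2 and 1042 RPKM (-0.69 ± 0.18; corrected -0.65). These falls numbered 0 without WT replicate 1, 1 without WT replicate 3, 3 without TLR9KO replicate 2, 3 or 4, 8 without TLR9KO replicate 1 and 9 without WT replicate 2. The rise was lost without WT replicate 1 or 2 or TLR9KO replicate 1, 2 or 4.

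**Figure D3:**
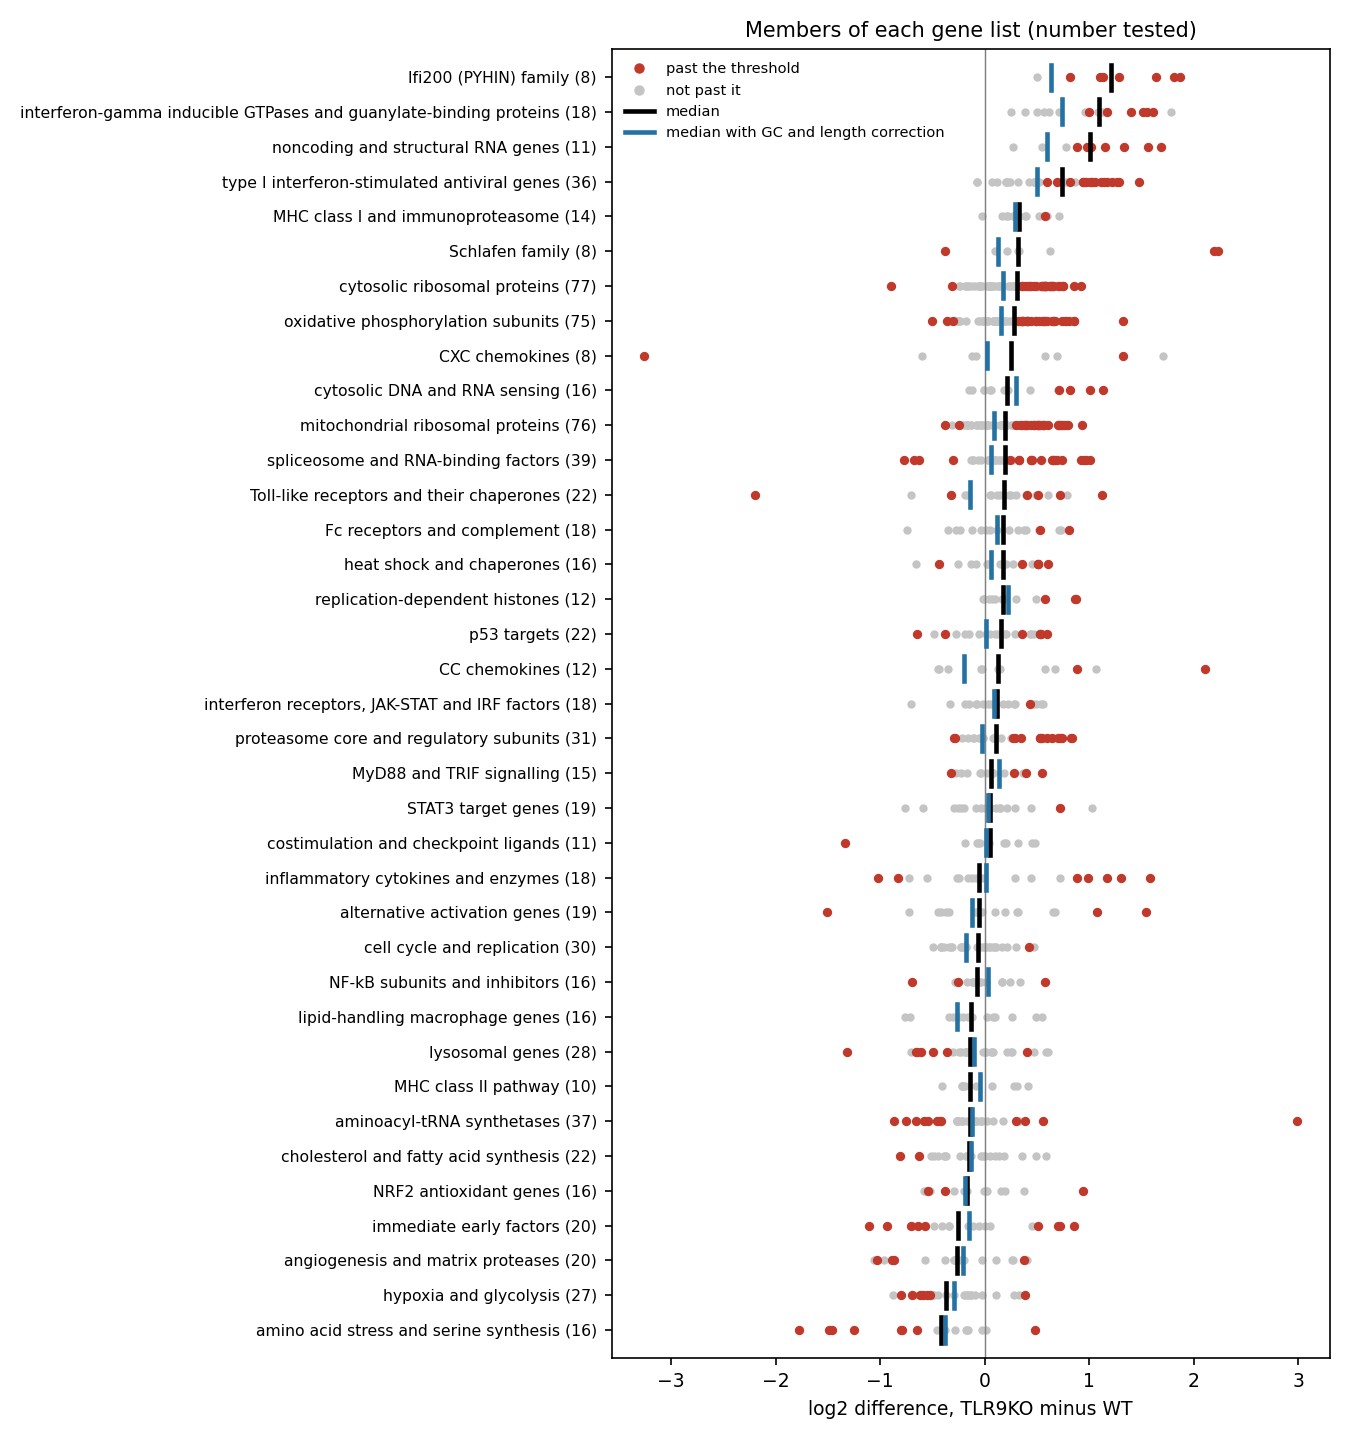
Log2 difference TLR9KO minus WT for each tested member of the lists with at least 8 tested members, markers of other cells left out; red points passed the threshold, black bars are list medians and blue bars medians with GC and length correction. The Ifi200 median moves from 1.21 to 0.64 and that of the amino acid genes from -0.42 to -0.38.

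In other lists few or no genes passed, and a wide spread can hide a difference. Of 10 genes of antigen presentation by MHC class II, 0 passed limma's threshold (0 also at an unadjusted p under 0.05), and their mean log2 value spread more within TLR9KO, from 6.52 in replicate 1 to 8.31 in replicate 3, than between the groups. Of 16 lipid-handling macrophage genes 0 passed (2 higher and 1 lower unadjusted). Of 30 genes of the cell cycle and replication 1 rose and 0 fell (2 and 1 unadjusted), and of 19 targets of Stat3 1 rose and 0 fell (2 and 2 unadjusted). Those rises numbered 0 to 2 when single libraries were left out, with 0 for both without WT replicate 1 and 2 for both without WT replicate 2 or TLR9KO replicate 1. These shares lie below the 30.6% called over all genes.

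Some genes changed against the GC trend and are listed for that reason. They too were taken only from called genes without overlap between the groups. In the highest GC class, Gadd45g, a stress-induced growth regulator with 59.85% GC, was 46.7, 45.81, 49.99 and 54.8 RPKM in TLR9KO and 15.2, 12.6 and 22.2 RPKM in WT. The groups were well apart, and the difference grew from 1.54 ± 0.16 to 1.67 ± 0.13 with correction. Rpl35, of the large ribosomal subunit, rose from 225, 219 and 187 RPKM to 293, 370, 429 and 337 RPKM (0.75 ± 0.14; corrected 0.81). The transcription factor Klf4 rose by 0.86 ± 0.30, and lost its call in 6 of the 7 fits that left out a TLR9KO or WT library, with limma adjusted p of up to 0.209 without WT replicate 1. In the lowest GC class, falls beside Cxcl1 and Il6 included the dehydrogenase Dhrs9 (-0.61 ± 0.20; corrected -0.89), Purb (-0.45; corrected -0.67) and the kinase Uhmk1 (-0.45; corrected -0.55).

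Genes next to Tlr9 were examined after their values had been seen. In the gene order of RefSeq, the 10 tested genes after Tlr9 gave 0 rises and 7 falls (0 and 8 unadjusted), with a median of -0.66, and corrected 0 and 6 with a median of -0.54. The 10 before it gave 2 rises and 0 falls (also 2 and 0 unadjusted), with a median of 0.15. The 20 genes on each side gave 4 rises and 0 falls before and 1 and 12 after. Alas1, the adjacent gene and the rate-limiting enzyme of heme synthesis, was 16.4, 26.2, 30.04 and 23.04 RPKM in TLR9KO and 58.2, 49.1 and 45.6 RPKM in WT (-1.09 ± 0.19; corrected -1.02). Abhd14b, a hydrolase, was 1.48, 1.37, 0.80 and 0.93 RPKM against 4.97, 3.09 and 4.06 RPKM (-1.23 ± 0.18; corrected -1.20), and Rpl29, a ribosomal protein, 7.34, 8.85, 8.62 and 6.33 RPKM against 15.99, 15.6 and 14.2 RPKM (-0.90 ± 0.13). The 3 genes did not overlap between the groups, whereas Twf2, the gene before Tlr9, did (-0.16 ± 0.22). The genes after Tlr9 have a median GC content of 56.6% and those before it 48.1%. Over all genes 20% rose and 10.6% fell, and corrected 9.62% and 7.75%. The 2 rises of the 10 genes before Tlr9 lie near that share. In the class with the highest GC content 21.6% of all genes fell.

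**Figure D4:**
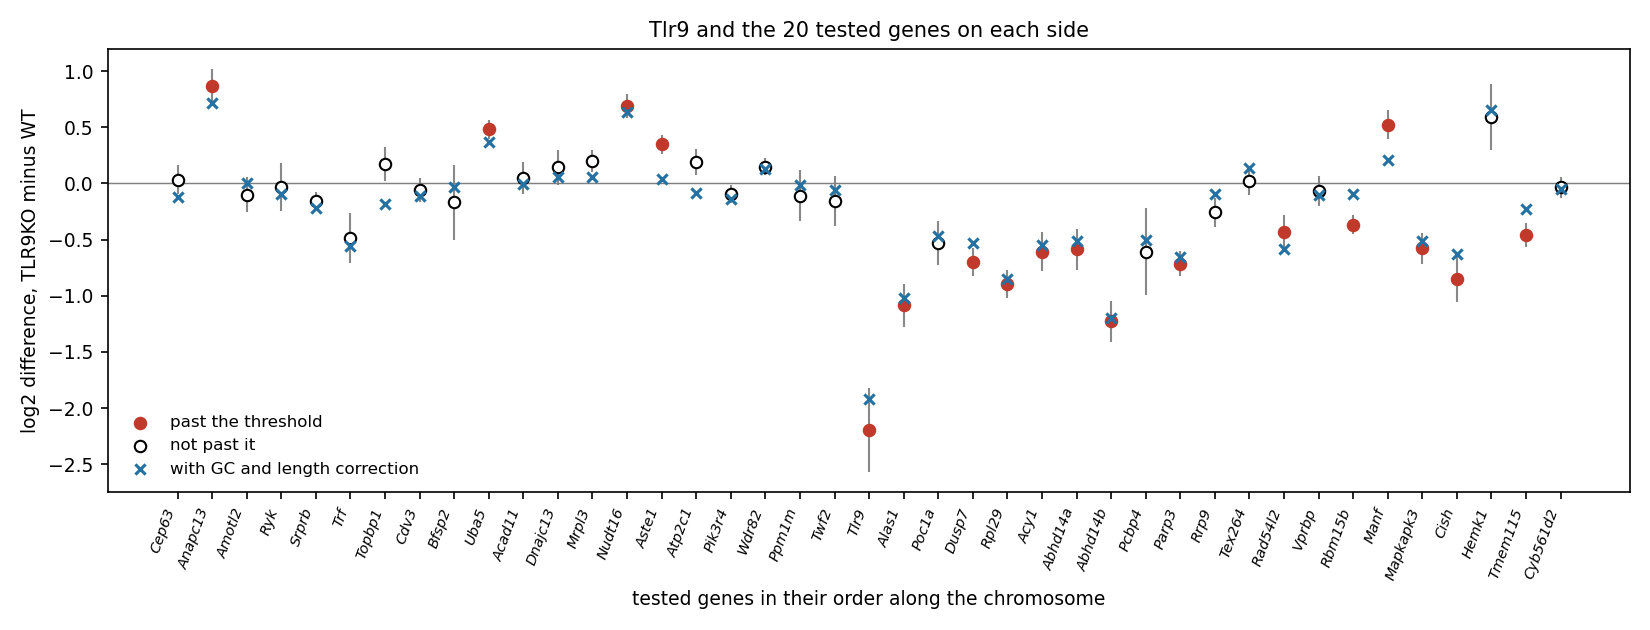
Log2 difference TLR9KO minus WT with SE for Tlr9 and the 20 tested genes on each side in their order along the chromosome; filled points passed the threshold, and crosses are values with GC and length correction. Genes just after Tlr9 lie mostly below 0, from -0.26 to -1.23 for the nearest 10, while those before it have a median of 0.15.

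Several genes with large changes lie further away on that chromosome, among them Lars2, Calml4, Il18, Casp4, the checkpoint ligand Cd276 (-1.33 ± 0.36) and Glb1. Glb1, lysosomal beta-galactosidase, was 14.6, 16.8, 13.7 and 13.3 RPKM in TLR9KO and 41.9, 36.6 and 35.2 RPKM in WT, a wide gap (-1.32 ± 0.12; corrected -1.21). Over the whole chromosome 34.0% of 576 tested genes were called and 2.6% changed at least 2-fold, against 30.3% and 2.12% on the others.

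Markers of other cells also differed. The summed level of 13 erythroid markers was 2.31, 4.09, 1.39 and 4.42 RPKM in TLR9KO and 208, 57.3 and 224 RPKM in WT. All 5 tested members fell, against 10.6% of all genes, and 0 rose (0 also unadjusted). The alpha-globin Hba-a1 was 0.51, 1.00, 0.31 and 1.44 RPKM against 75.1, 21.7 and 82.5 RPKM (-4.89 ± 0.71), and the heme enzyme Alas2, below the filter, was 0.03 to 0.09 RPKM against 1.58, 0.35 and 1.56 RPKM. WT replicate 2 was the lowest WT library and still above every TLR9KO library. Hbb-b1 was listed at 0 in TLR9KO replicates 2 and 3, at 0.02 in replicate 1 and at 0.17 RPKM in replicate 4, against 9.69, 2.18 and 12.6 RPKM in WT. Hbb-bh1 and Car1, also erythroid, were listed at 0 in all 7 libraries. Hemoglobin genes are near-identical and can share reads.

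Collagens stood higher in TLR9KO than in WT, at levels that STAT3KO shared (Col1a1 at 5.84 to 11.65 RPKM there). Of 7 tested fibroblast markers 4 rose and 0 fell (also 4 and 0 unadjusted), against 20% and 10.6% of all genes. The rises were Col1a1, Col1a2, Col3a1 and the proteoglycan Bgn. Col1a1 was 14.8, 5.76, 3.88 and 5.20 RPKM against 1.53, 1.02 and 0.78 RPKM, with TLR9KO replicate 1 the highest and no overlap (1.85 ± 0.35; corrected 2.27). The summed level of the 15 fibroblast markers, led by Sparc, overlapped at 35.6 to 122 RPKM in TLR9KO against 30.5 to 80.4 RPKM in WT. The fibroblast receptor Pdgfra was at most 0.14 RPKM.

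Of the myeloid markers, 0 of 14 for macrophages passed (1 higher and 1 lower unadjusted; 2 higher and 1 lower past the threshold without TLR9KO replicate 1), with summed levels of 7649 to 10181 RPKM and 7190 to 7986 RPKM. The sort marker Itgam, which encodes CD11b, was 177 to 328 RPKM in TLR9KO against 294 to 313 RPKM in WT. Of 12 neutrophil markers 0 rose and 2 fell (0 and 2 unadjusted), against 20% and 10.6% of all genes. The falls were Trem1 (-1.15 ± 0.29) and Il1r2 (-0.51 ± 0.16), of which 1 fell without WT replicate 1 or 3 or TLR9KO replicate 1 or 3. S100a8 overlapped, at 6.88 to 18.6 RPKM against 2.21 to 17.5 RPKM. The granule genes Elane and Mpo were at most 0.15 RPKM. Of 13 melanocyte markers 0 passed (0 higher and 1 lower unadjusted), against 30.6% of all genes, and 3 fell without WT replicate 2. Their standard errors were 0.18 to 0.47, so smaller differences could go uncalled. Their summed level was 789 to 2001 RPKM in TLR9KO against 955 to 2488 RPKM in WT. The only tested epithelial marker, Cdh1, was 11.1, 8.45, 3.06 and 6.39 RPKM against 25.4, 17.5 and 14.8 RPKM, without overlap (-1.37 ± 0.30). The other epithelial markers were scarce in every library, with Epcam at most 0.62 RPKM and the keratins and claudins at most 0.16 RPKM. From Cdh1 alone it cannot be told whether epithelial cells differed. The part of any of these cells in the differences above was not tested.

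**Figure D5:**
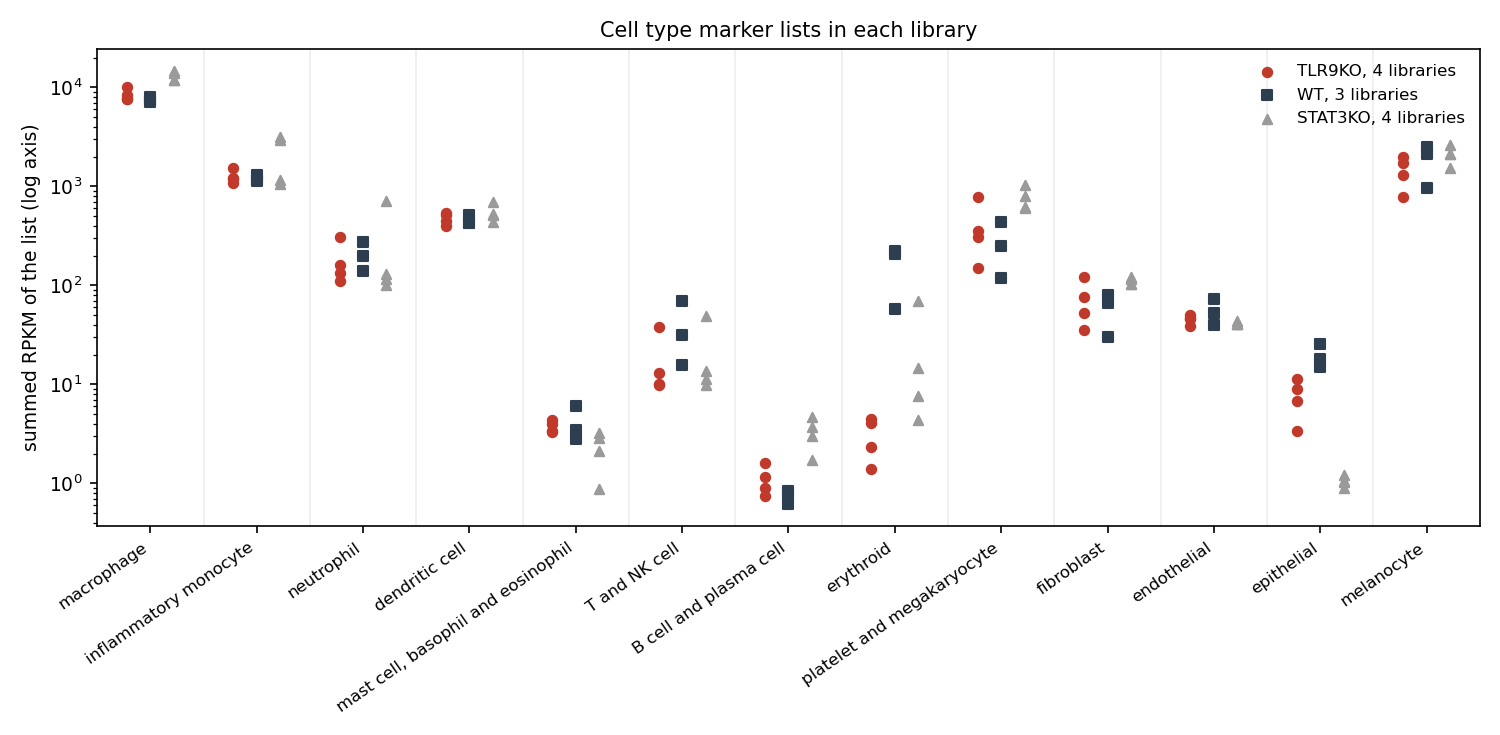
Summed RPKM on a log axis of 13 lists of cell type markers; each point is a library. The erythroid sums are 1.39 to 4.42 RPKM in TLR9KO against 57.3 to 224 RPKM in WT, while the macrophage sums lie close together.

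Set against STAT3KO, TLR9KO differed in 22.8% of the genes, and this comparison shares its TLR9KO libraries with the one above. Cxcl1 was 1.80 to 4.05 RPKM in TLR9KO against 23.2 to 45.0 RPKM in STAT3KO, so no TLR9KO library reached either other group. The interferon-stimulated Ifi44, at 3.69 to 8.67 RPKM in STAT3KO, overlapped with its TLR9KO range. So did Col1a1, Gas5 (7.11 to 9.46 RPKM in STAT3KO), Gadd45g (49.6 to 59.8 RPKM) and Mnda (89.1 to 170 RPKM). In each of these genes every STAT3KO library lay above the WT range, and none passed between TLR9KO and STAT3KO. Cxcl1, Lars2, Calml4 and Cndp2 did pass.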

How the data were processed

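RPKM values per gene symbol were deposited by the authors, per the file headers, which name RPKM in 10 of 11 files; TLR9KO replicate 4 lacks the unit there and was treated alike. Per the submitters' processing notes, CASAVA 1.7, TopHat 1.3.1, Bowtie 0.12.7, Partek and mm9 were used. Whether reads were counted by strand is not given in the sources used here, and 25 symbols are dates.

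Depth was estimated from the steps between the RPKM values of short genes. Values entered limma 3.58.1 (R 4.3.3; trend on) as log2(RPKM + 1) with a mean per group over all 11 libraries, a filter of a mean of 1 RPKM and Benjamini-Hochberg adjustment over 10557 genes. Transcript GC content and length came from GENCODE M21 on GRCm38, matched for 10427 genes, and the correction subtracted natural splines (5 df each) fitted in each library. The fit was tested on simulated data.

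Named genes were Tlr9, the 12 largest rises and falls with non-overlapping groups and a higher mean of at least 5 RPKM, up to 6 each against the GC trend, up to 4 per list by p, and up to 4 that changed direction with correction. Genes named outside this rule (Tlr3, Tlr4, Tlr6, Tlr13, Unc93b1, Cxcl2, Atf4, Dars, Yars2, Hars2, Itgam, S100a8, Sparc and those below the filter or beside Tlr9) were chosen after their values were seen. Members and lists were chosen with earlier results of these data known. Nothing in the labels says that replicate numbers pair samples across groups. Deviations of same-numbered libraries correlated at 0.181, -0.222 and -0.291, and those of differently numbered ones at -0.435 to 0.533. So few libraries cannot decide whether samples were paired. Some genes that this rule or the lists would name are not reported here.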

Additional observations from a re-analysis of the deposited data

Results flagged for a closer look

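For 195 values, the 4 TLR9KO libraries were searched for one that stands apart, by the gap to its nearest neighbour as a share of the group's range. Chance marks about 1 in 20 such groups, and the values named below are about as many as that share gives. TLR9KO replicate 1 stood apart in Bgn (5.92 RPKM, the others 2.95 to 3.24; share 0.874), Col1a2 (10.3 RPKM, the others 2.34 to 3.04; 0.843) and Laptm5, a lysosomal membrane protein of leukocytes (763 RPKM, the others 901 to 931; 0.835). It was also the lowest library in the mean log2 value of NF-kB subunits (4.43, the others 4.60 to 4.62; 0.929) and the highest in that of NRF2 antioxidant genes (6.61, the others 6.34 to 6.37; 0.909). TLR9KO replicate 3 was lowest in Hk1, hexokinase (46.1 RPKM, the others 63.4 to 65.4; 0.91), and in Trem1 (7.57 RPKM, the others 16.2 to 18.5; 0.844), and highest in the mean of Toll-like receptors (6.04, the others 5.68 to 5.72; 0.878). TLR9KO replicate 4 was highest in Hbb-b1 (0.17 RPKM, the others 0 to 0.02; 0.874) and Hbb-b2 (0.61 RPKM, the others 0 to 0.07; 0.858). TLR9KO replicate 2 was lowest in Tbk1 (13.9 RPKM, the others 15.3 to 15.4; 0.885).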

How the results depend on the processing

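The count of 3229 genes past limma's threshold was 1811 with GC and length correction, 1227 with a replicate block and that correction, and 362 against WT replicate 2 alone; leaving out 1 library gave 1985 (without WT replicate 1) to 3588 (without WT replicate 2). With a replicate block alone it was 2662, though the labels do not say that the numbers pair the samples. The 230 changes of at least 2-fold became 433 with a pseudocount of 0.1, 78 corrected, 83 with the block and correction, 87 against WT replicate 2 alone, and 167 to 355 when single libraries were left out. The 2409 genes between TLR9KO and STAT3KO became 3807 with array weights and 1577 (without TLR9KO replicate 4) to 2703 when single libraries were left out. The difference in GC slope stayed between -0.444 and -0.316. Of 148 named genes, 7 reversed with correction and with the block and correction, respectively: Ly96 (-0.0406, -0.0436), B2m (-0.0782, -0.0522), Rrm2b (-0.00718, -0.0262), Nt5dc1 (-0.249, -0.278), Dcun1d5 (-0.294, -0.323), Trappc2 (-0.405, -0.397) and Nxt2 (-0.378, -0.414). Another 40 lost their call with correction and 99 kept it; 45 lost it without WT replicate 1. The cause of these shifts was not tested. At 60 to 83.1 reads per RPKM in a 2 kb transcript, differences in genes under 1 RPKM are limited by depth.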
